A study of Caenorhabditis elegans with 2 samples.

Results

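The proteins of the cytosolic ribosome are encoded in Caenorhabditis elegans by a large set of mostly single genes, and 80 of them were examined among 19985 protein-coding genes for regions recovered with the nuclear hormone receptor NHR-76. They were taken by symbol from the WBcel235 annotation, as every protein-coding rpl or rps gene with a plain number, together with rla-0, rla-1, rla-2 and ubl-1. Classed by symbol, the set held 45 genes of the large subunit, 32 of the small subunit and 3 genes of the stalk. The small subunit genes include ubl-1, whose product fuses a ubiquitin-like domain to a small subunit protein. The genes rpl-7A, rpl-36.A, ubq-2 and rack-1 fell outside the rule and were counted in another list, given at the end.

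NHR-76 belongs to the nuclear hormone receptors, a family of zinc finger proteins that bind DNA and is greatly expanded in worms. The ribosome joins a small subunit, which decodes the messenger RNA, with a large subunit, which forms the peptide bond. Its proteins are needed in near equal amounts, so their genes are expressed together and strongly in growing tissues. Many worm genes, ribosomal protein genes among them, receive a spliced leader, so an annotated 5′ end often marks a splice site a little downstream of where transcription starts.

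Chromatin immunoprecipitation and sequencing was applied to whole L4 larvae, the last larval stage, of mixed sex and unknown age. The strain was OP203, with the genotype unc-119(ed3) III; wgIs203, in which an inserted transgene supplies NHR-76 tagged with enhanced green fluorescent protein. There was 1 group with 2 biological replicates, both of this genotype and stage, and the labels name neither the cells that express the transgene nor the sequence that drives it. The label for the antibody reads nhr-76, while the description names eGFP-nhr-76. The lists hold no expression values, so the stage and tissue could not be checked against marker genes. The ce11 lists held 319 called peaks (288 of them nuclear), 13052 pooled regions, 26700 regions for replicate 1 and 24791 for replicate 2, and each region had a deposited signal value that ranks it within its own list (rank 1 is the strongest). No read counts were used, so the depth behind a region is unknown, and no control immunoprecipitation was analysed here. A gene was counted as called when a called summit lay between 1000 bp upstream and 200 bp downstream of its 5′ end, and no enrichment test was made over the list.

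The sequences at some called summits are shown first, picked because they share short words that come back below. They do not stand for the strongest summits in general. The strongest, at rpl-3, is not shown and holds AGTGTA and TACGGT alone, and the windows of rps-19 and rps-12 hold none of the words. Each is 200 bp centred on a summit, read 5′ to 3′ on the strand of the gene from the NCBI copy of WBcel235 (ce11), the build of all coordinates given here, with the word AGTGTA, the word CGCTCC and the word TACGGT in capitals on either strand. The first 4 are at called peaks, those of rpl-15, rpl-20 and rpl-35, which are among the 4 strongest of these genes, and the weaker one of rps-1. The windows of rpl-15, rpl-20 and rps-1 hold all 3 words, and that of rpl-35 holds AGTGTA and CGCTCC alone. The last is the region with the best pooled rank among these genes that was not called, which lies between rpl-36 and rps-14 and holds none of the words.
rpl-15 (chrIV:654828-655027, minus strand): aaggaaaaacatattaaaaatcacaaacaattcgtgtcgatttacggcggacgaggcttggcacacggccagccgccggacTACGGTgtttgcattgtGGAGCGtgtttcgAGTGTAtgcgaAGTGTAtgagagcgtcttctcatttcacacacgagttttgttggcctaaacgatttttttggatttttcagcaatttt
rpl-20 (chrIV:4750005-4750204, minus strand): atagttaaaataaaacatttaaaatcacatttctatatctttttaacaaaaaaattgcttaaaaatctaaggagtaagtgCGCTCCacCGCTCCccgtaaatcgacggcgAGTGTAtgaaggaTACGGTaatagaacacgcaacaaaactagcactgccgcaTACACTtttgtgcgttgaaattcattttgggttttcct
rpl-35 (chrIII:7854584-7854783, plus strand): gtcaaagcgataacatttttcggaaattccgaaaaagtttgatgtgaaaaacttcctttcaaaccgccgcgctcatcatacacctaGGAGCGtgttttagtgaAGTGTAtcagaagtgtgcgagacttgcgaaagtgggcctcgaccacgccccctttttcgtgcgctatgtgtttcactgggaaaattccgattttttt
rps-1 (chrIII:4475542-4475741, plus strand): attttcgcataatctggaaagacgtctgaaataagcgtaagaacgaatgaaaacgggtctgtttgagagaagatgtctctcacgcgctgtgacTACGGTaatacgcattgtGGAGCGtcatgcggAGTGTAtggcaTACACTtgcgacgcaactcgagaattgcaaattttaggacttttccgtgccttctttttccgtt
rpl-36 (chrIII:7179753-7179952, plus strand): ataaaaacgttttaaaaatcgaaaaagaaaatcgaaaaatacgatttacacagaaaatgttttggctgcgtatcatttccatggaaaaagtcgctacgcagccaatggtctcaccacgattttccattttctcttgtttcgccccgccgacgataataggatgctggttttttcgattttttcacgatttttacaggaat
TACGGT read forward on the gene's strand in rpl-15, rpl-20 and rps-1, which held all 3 words. These were picked for the words, and the strand of TACGGT in the other called windows is not given here. Each of these summits also lies in the window of a gene transcribed the opposite way, for which the word reads in reverse.

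Of the 80 genes, 13 (16.2%) had a called summit in the window, against 197 of 19905 other protein-coding genes (0.990%). Over all protein-coding genes the share was 1.05%. When each summit was given to the nearest 5′ end alone, the count was 6, against 0.821% of all. The 13 regions were distinct, 1 for each gene. Their signal values ranged from 67.4 to 248, with a median of 111, where the 141 other called nuclear peaks in promoter windows had a median of 74.5. By rank among the 288 called nuclear peaks, 4 of the 13 were within the strongest 25, 7 within the strongest 50 and 8 within the strongest 100. The called genes were 6 of 45 large subunit genes (13.3%), 7 of 32 small subunit genes (21.9%) and 0 of 3 stalk genes. By chromosome they were 5 of 25 genes on I, 4 of 19 on III, 4 of 17 on IV, 0 of 9 on II, 0 of 8 on V and 0 of 2 on X. The share of all genes called on each chromosome is not given here. With so few genes on II, V and X, these counts show no limit to some chromosomes.

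**Figure D1:**
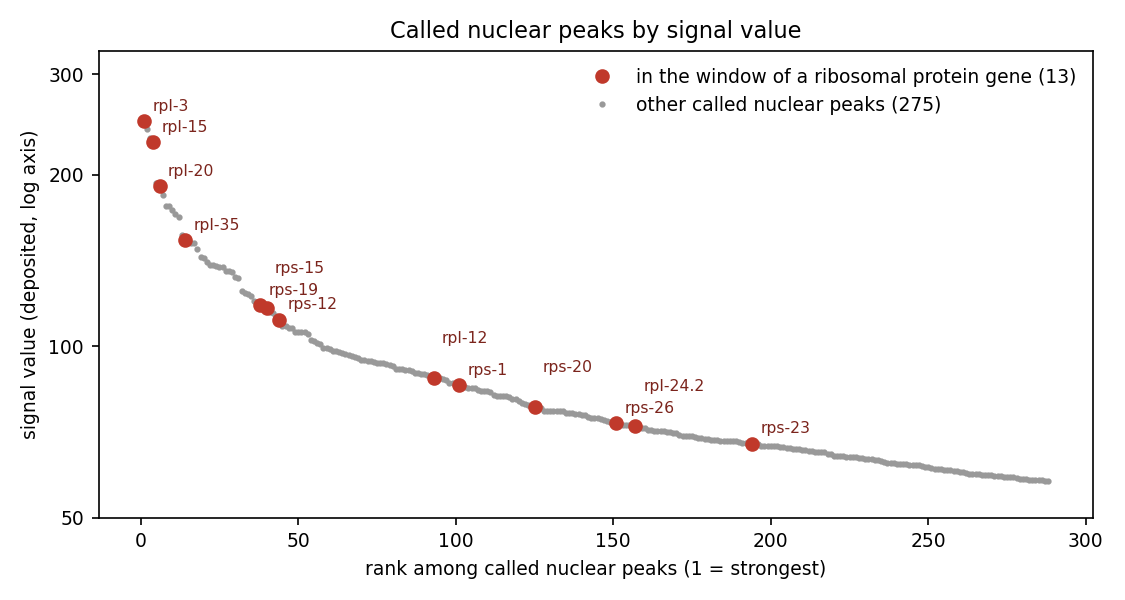
Deposited signal value (log axis) of the 288 called nuclear peaks against their rank, with red points for the 13 peaks in the window of a ribosomal protein gene and grey points for the other 275. The ribosomal points run from rank 1 (rpl-3) to rank 194 (rps-23), and 7 of them lie within the strongest 50.

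The large subunit genes held the strongest of these peaks. rpl-3, whose product reaches towards the site of peptide bond formation, had the strongest called nuclear peak, with a summit 269 bp upstream (signal value 248). In the whole called list the peak had rank 24, and every stronger called region lay on mitochondrial DNA. Ranks in the replicate and pooled lists count mitochondrial regions too. The rpl-3 region had rank 24 in replicate 1 and rank 28 in replicate 2, with signal values of 159 and 96.5 on the scales of those lists. A second, weaker region near the far edge of its window, at -977 bp in the pooled list, had rank 3010 there, 3732 in replicate 1 and 20279 in replicate 2. The main summit of rpl-3 thus stood among the first 30 regions of either replicate, while the far one did not recur at a like rank.

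rpl-15 encodes a core protein of the large subunit, and its called summit lay 352 bp upstream (chromosome IV, 654743 to 655112, signal value 228), with rank 29 in replicate 1 and 31 in replicate 2. The peak of rpl-20 lay 327 bp upstream (chromosome IV, 4749920 to 4750289, signal value 191), with ranks 28 and 42 in replicates 1 and 2. The peak of rpl-35, whose product lies near the exit of the peptide tunnel, had its summit 450 bp upstream (chromosome III, 7854499 to 7854868, signal value 153.5), with ranks 46 and 36. These 3 and rpl-3 were the only genes of the 80 within the first 50 regions in both replicates. The replicate summits lay within 5 bp of the called one at rpl-3, rpl-15 and rpl-20, and 18 bp further upstream in replicate 2 at rpl-35.

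The remaining called large subunit genes were weaker. rpl-12 encodes a protein at the base of the stalk, where elongation factors bind. Its called summit lay 11 bp inside the annotated gene, in its UTR (chromosome IV, 13240455 to 13240824, signal value 88.0), with ranks 81 and 113 in replicates 1 and 2. It was the only called summit of the 13 that lay downstream of its gene's 5′ end, and in both replicate lists and the pooled list the nearest summit was upstream, at -48, -34 and -48 bp in replicate 1, replicate 2 and the pooled list. rpl-24.2, related to a factor that in yeast holds a place on the immature large subunit during assembly, had a summit 111 bp upstream inside an intron of C03D6.1 (chromosome I, 9669119 to 9669488, signal value 72.4). It had rank 188 in replicate 1 and 414 in replicate 2, and 414 was the weakest rank of any of the 13 in either replicate.

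Among the small subunit genes the leading 3 were close to each other in signal. rps-19 (chromosome I, 9625900 to 9626269, signal value 118) had ranks 65 and 66 in replicates 1 and 2, and its human counterpart is mutated in an inherited anaemia. rps-15 (chromosome I, 8816408 to 8816777, signal value 116.7) had ranks 79 and 83. rps-12 (signal value 111) had ranks 60 and 53, and the snoRNA gene F54E7.10 lay within 500 bp of its called summit. All 3 were therefore among the first 100 regions of both replicates.

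The other small subunit peaks spread over a wider range of ranks. rps-1 had its peak at chromosome III, 4475457 to 4475826 (signal value 85.5), with ranks 100 and 88 in replicates 1 and 2, and its summit lay in an exon of the noncoding RNA genes F56F3.10 and F56F3.11. rps-20 (chromosome I, 14469160 to 14469529, signal value 78.2) had ranks 152 and 81. rps-26, whose product lines the exit channel of the messenger RNA, had its peak at chromosome I, 14759335 to 14759704 (signal value 73.2), with ranks 245 and 292. The snoRNA gene F39B2.14 lay within 500 bp of that summit. rps-23, for a protein of the decoding centre, had the weakest called peak of the set (chromosome IV, 12391225 to 12391594, signal value 67.4), with ranks 166 and 218. Its called summit at -357 bp matched no single summit of the other lists closely, as the pooled list and replicate 1 had summits at -305 and -504 bp and replicate 2 at -247 bp.

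The called list was drawn from the replicate lists by recurring ranks, so good ranks of called peaks in both replicates follow from how it was made. Over all 13, the median rank was 79 in replicate 1 (24 to 245) and 81 in replicate 2 (28 to 414).

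Summits at ribosomal protein genes gathered in a narrow stretch upstream. The 13 called summits had a median position of -289 bp (quartiles -357 and -242 bp), and 12 of them lay between 500 and 100 bp upstream (92.3%). For the 218 pairs of other genes and called summits the median was -252.5 bp, but the quartiles were -511 and -156.5 bp and 56.9% lay in that stretch. These pairs include genes and summits on mitochondrial DNA, and their part in the wider spread was not tested. The stretch makes up 33.4% of the window. Its edges were not set in the plan and may follow these summits, so the shares in it are a description alone. In the pooled list the stretch held 46 of 56 summits at ribosomal protein genes (82.1%), against 46.0% of 4606 at other genes. In replicate 1 the shares were 75% of 72 summits and 41.4% of 8071, and in replicate 2 they were 72.5% of 69 and 41.6% of 7432. The pooled and replicate lists overlap in their source, so these are not separate observations.

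**Figure D2:**
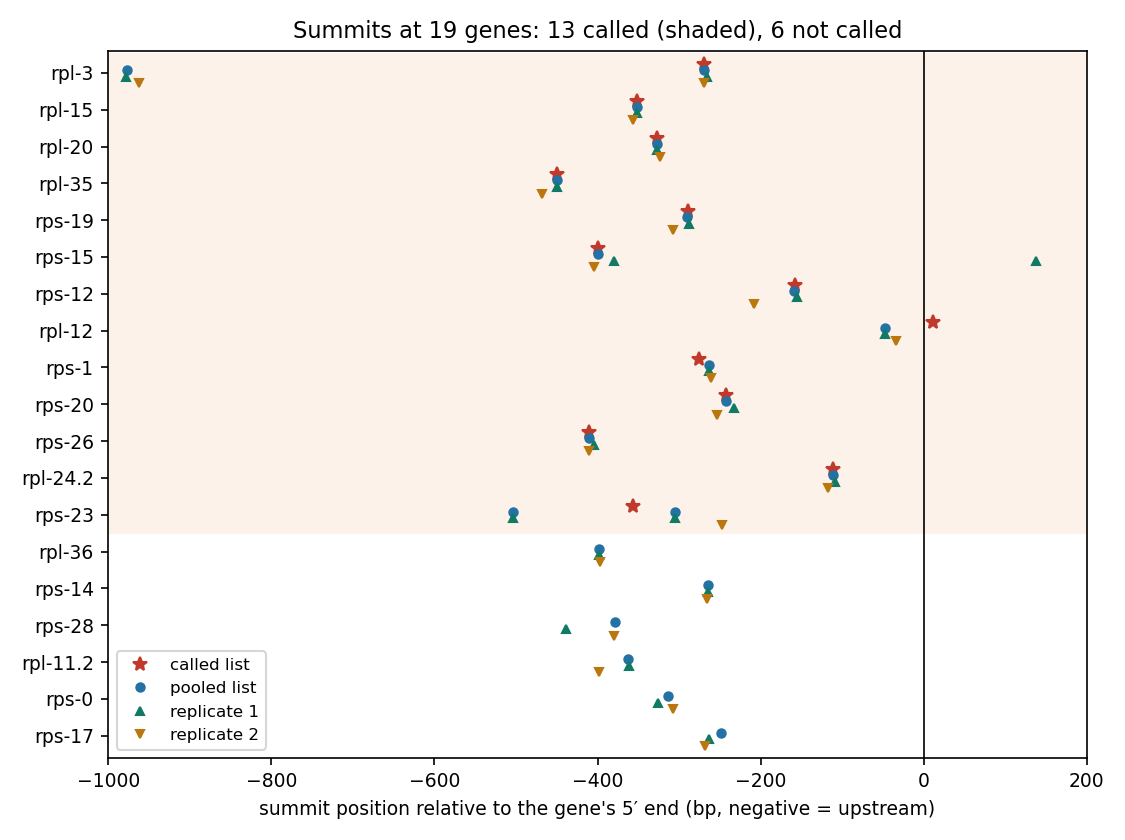
Summit positions (bp from the gene's 5′ end, negative upstream) at the 13 called genes (shaded) and the 6 uncalled genes with a region among the 319 strongest of a replicate, with stars for the called list, circles for the pooled list and triangles pointing up and down for replicates 1 and 2. Most summits of a gene stack closely. The wider cases are rps-23, rpl-12, rps-12 (50 bp further upstream in replicate 2 than the called summit), rps-28 and the second regions of rpl-3 and, in replicate 1 inside the gene, rps-15.

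Most of the called regions also lay in the window of a neighbour. Of the 13, 10 were shared with 1 other protein-coding gene transcribed the opposite way, and for 6 of the 13 the ribosomal gene had the nearest 5′ end. The neighbour was nearer at rpl-20 (Y17G9B.5), rps-19 (hsr-9), rps-15 (F36A2.9), rps-12 (ska-3), rps-20 (ekl-4), rps-26 (tmem-107) and rps-23 (dpm-3). At rps-26 the summit lay 47 bp upstream of tmem-107 and 410 bp upstream of rps-26. At rpl-15, rpl-12 and rps-1 the neighbours K11H12.8, lin-54 (a DNA-binding subunit of the DREAM complex) and ifet-1 (a translational repressor) were further away than the ribosomal gene. rpl-3, rpl-35 and rpl-24.2 shared their peak with no other protein-coding window, and these include the strongest and the fourth strongest of the set. A region between divergent genes cannot be given to one of them from these lists.

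Divergent neighbours were common in the set as a whole. A gene on the other strand started within 1000 bp upstream for 46 of the 80 genes (57.5%), against 17.5% of other protein-coding genes. Of these 46, 10 were called (21.7%), against 64 of 3493 other genes with such a neighbour (1.83%). Without such a neighbour, 3 of 34 ribosomal protein genes were called (8.82%), against 133 of 16412 other genes (0.810%). The share was thus higher for the ribosomal protein genes in both classes, by counts with no test.

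GC content also differed a little. The windows of the 80 genes had a median GC of 37.0%, against 34.9% for other genes, and those of other called genes had 37.3%. Between the GC quartiles of the ribosomal windows (35.3% and 39.1%), 6 of 40 ribosomal protein genes were called, against 78 of 6452 other genes (1.21%). The masked repeat share was near equal, at 31.7% and 31.5% for ribosomal and other windows. Among the 80 genes, the windows of called and uncalled ones had a median GC of 36.8% and 37.0%.

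Beyond the called peaks, most of the set had some region in the window. The pooled list placed a summit at 49 of 80 genes (61.2%), where it did so at 21.3% of all protein-coding genes. Replicate 1 had one at 60 genes (75%, against 34.8% of all), and replicate 2 at 55 (68.8%, against 32.4%). Both replicates had one at 47 genes (58.8%, against 17.9% of all), and any of the 4 lists at 68 (85.0%, against 49.5%). These long lists hold peaks and background together, per the texts deposited with the samples, so a region far down in them may be background.

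Equal numbers of the strongest regions were therefore also taken from each replicate. Among the 319 strongest regions, the number of called peaks, replicate 1 reached 15 of the 80 genes (18.8%, against 1.04% of all protein-coding genes) and replicate 2 reached 18 (22.5%, against 1.04%). Both reached 14 (17.5%, against 0.671% of all). Among the 100 strongest, each replicate reached 9 (11.2%, against 0.345% of all in replicate 1 and 0.31% in replicate 2), and both reached 8 (10%, against 0.235%). Among the 1000 strongest, each replicate reached 25 genes (31.2%, against 2.89% of all in replicate 1 and 2.71% in replicate 2), and both reached 20 (25%, against 1.46%). Among the 5000 strongest, replicate 1 reached 41 (51.2%, against 10.3% of all), replicate 2 reached 34 (42.5%, against 9.6%) and both reached 29 (36.2%, against 4.43%). The 1000 strongest pooled regions reached 24 genes (30%, against 3.06% of all).

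**Figure D3:**
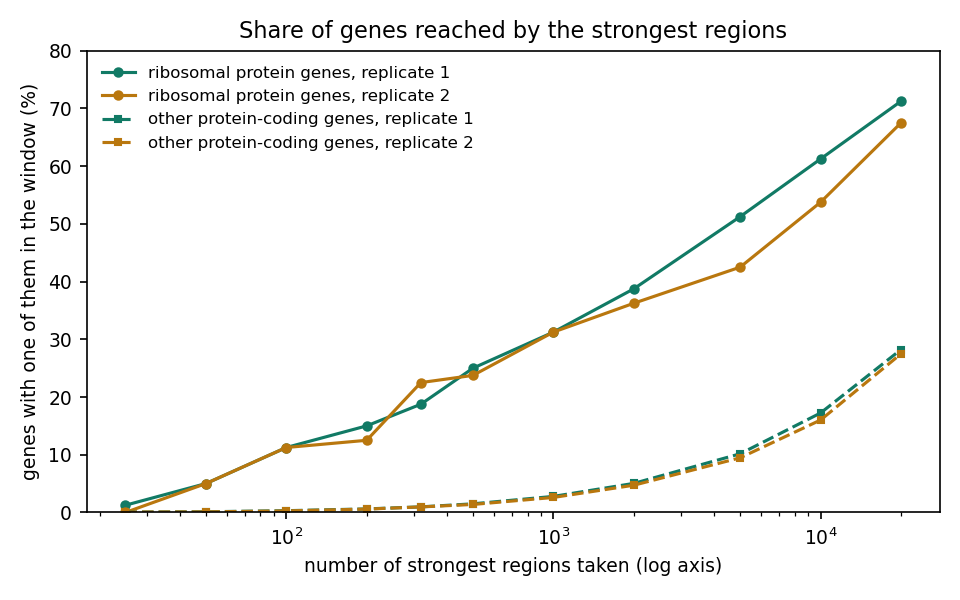
Share of genes (%) with one of the strongest regions of a replicate in the window, against the number of regions taken (log axis), with solid lines for the 80 ribosomal protein genes and dashed lines for the 19905 other protein-coding genes. At 1000 regions the solid lines stand at 31.2% in both replicates and the dashed lines at 2.78% in replicate 1 and 2.60% in replicate 2.

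For the genes with a region in both replicates, the strongest one tended to rank alike in the 2. Over these 47 genes Spearman's rho of the ranks was 0.843, over the 34 of them without a call it was 0.616, and over 3535 other genes with a region in both it was 0.423. The 3535 include called genes, which were picked by recurring ranks, so the value of 0.616 has no like value beside it. The points share a genome, a further file used for both lists and, for divergent pairs, the region itself, and the values are given as a description. At 42 of the 47 genes a summit of replicate 1 lay within 200 bp of one of replicate 2, and the same share for other genes is not given here. The strongest region had a median rank of 1495 over 60 genes in replicate 1 and 1832 over 55 genes in replicate 2, against 10095 and 10063 for other genes with a region, and the 20 and 25 genes with none do not enter.

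**Figure D4:**
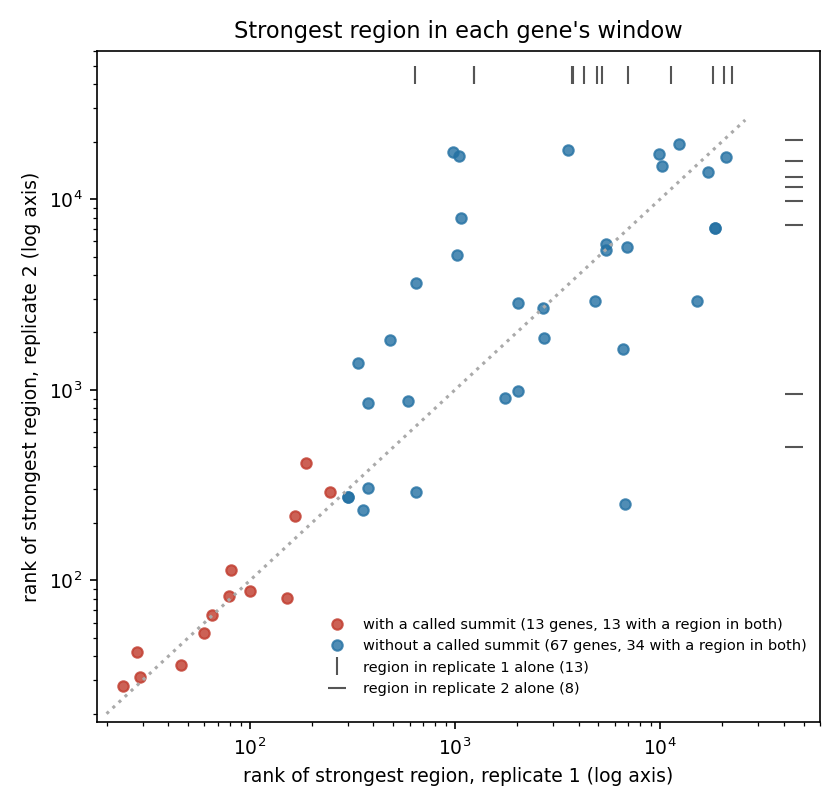
Rank of the strongest region in each ribosomal protein gene's window in replicate 1 (x) and replicate 2 (y), both on log axes, in red for the 13 called genes and blue for the others, with ticks at the edges for the 13 and 8 genes with a region in 1 replicate alone. The called genes follow the dotted line of equal rank, the others spread more widely, and divergent pairs that share a region fall on 1 point.

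Below the called genes stood 6 uncalled genes with a region among the 319 strongest of a replicate. rpl-36 and rps-14 are divergent ribosomal genes 663 bp apart, and their common region (rank 190 in the pooled list) had rank 301 in replicate 1 and 273 in replicate 2. In the pooled list it stood above the region of rps-26, at 193, which was called. The pooled list held 54 regions within its first 319 that had no called summit within 200 bp, and this region was 1 of them. rps-28 had ranks 375 and 304 in replicates 1 and 2, and rpl-11.2, whose product binds the small ribosomal RNA of the large subunit, had ranks 354 and 234. rps-0 had ranks 643 and 290. rps-17 had ranks 6714 and 253, the widest gap of the 6, so its place rests on replicate 2.

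Of the other uncalled genes, the 5 with the strongest pooled regions were rpl-14, rpl-23, rpl-31, rpl-41.2 and rps-8, with pooled ranks of 423, 462, 463, 530 and 940. Replicate 1 ranked rpl-14 at 337 and replicate 2 at 1384, and all 5 had a region in both. In all, 36 uncalled genes had a pooled region, 11 of them within the first 1000, at a median rank of 1947. The weakest was rpl-32 at 10739. Over all protein-coding genes, called ones included, a pooled region was at 21.3%, and a region among the first 1000 at 3.06%. Replicate 1 alone had a region at 13 ribosomal protein genes and replicate 2 alone at 8, and the same counts for other genes are not given here. In no list was there a region at rla-1, rpl-11.1, rpl-16, rpl-19, rpl-25.1, rpl-27, rpl-30, rpl-34, rpl-38, rpl-42, rps-2 or rps-9. The stalk genes, whose products draw elongation factors to the ribosome, had no pooled region, and in replicate 2 alone rla-2 had rank 7338 and rla-0 rank 20337. ubl-1 had a pooled region at rank 3260.

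Divergent pairs within the set shared their regions. Besides rpl-36 with rps-14, these were rpl-24.1 with rps-10 (pooled rank 1947, replicate 1 rank 1233, no region in replicate 2) and rpl-39 with rps-30 (rank 18409 in replicate 1 and 7044 in replicate 2, no pooled region). Counts over the 80 genes include both partners.

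Genes that share a number in their symbols differed within pairs. rpl-24.2, classed here with the large subunit by its symbol alone, was called. rpl-24.1, which encodes the subunit protein itself, had pooled rank 1947. rpl-11.2 had pooled rank 253, and rpl-11.1 had no region in any list. rpl-25.2 had pooled rank 1127, with rank 18096 in replicate 1 and none in replicate 2, and rpl-25.1 had none in any list. rpl-41.2 had pooled rank 530 and rpl-41.1 pooled rank 7942. The replicate ranks were closer, at 588 in replicate 1 and 876 in replicate 2 for rpl-41.2, against 2682 and 2679 for rpl-41.1, and the replicate 2 region with rank 2679 lay in both windows, inside rpl-41.1. The region of replicate 2 upstream of rpl-41.1 had rank 21845. The labels do not say how reads that match more than 1 place were treated.

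Short words in the sequence were counted on both strands, without a test, and a match is a description and not a binding site. Of 7 words searched, CACGTG, an E-box, was in 0 of 13 windows of 200 bp at called ribosomal summits, against 18 of 141 at other called promoter summits (12.8%). GAGAGA was in 3 of 13 (23.1%), against 42.6%, and CTGCGTC in 0 of 13, against 23.4%. AGGTCA, the core word of many nuclear receptors, was in 0 of 13, against 7.80%, its extended form AAGGTCA in 0 of 13, against 2.13%, and TATAAA in 0 of 13, against 8.51%. AAGGTCA contains AGGTCA, so those counts overlap.

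In the promoters of all 80 genes, taken from 250 bp before to 50 bp after the start, AGGTCA was in 6 (7.5%), against 8.27% of 19893 other promoters. CACGTG was in 1 (1.25%), against 5.84%, and CTGCGTC in 1 (1.25%), against 4.35%. GAGAGA was in 18 (22.5%), against 21.8%, AAGGTCA in 4 (5%), against 3.03%, and TATAAA in 21 (26.2%), against 38.0%. TTTCAG, the end of a worm splice acceptor, was searched on the gene's strand alone and was in 50 (62.5%), against 39.5%. These promoters end 250 bp upstream, while the median called summit lay at -289 bp, so the counts do not describe most called summits. The median GC of these promoters was 33.2%, against 34.3% for other genes, and its part in the counts was not tested.

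The words in capitals above were picked by reading the called windows, so their counts there only describe the choice. AGTGTA was in 5 of the 13 windows, CGCTCC in 6 and TACGGT in 6, and 9 held at least 1 of them. In the 141 other called promoter windows the shares were 11.3%, 12.1% and 12.1%, and in 3776 uncalled pooled promoter windows 6.99%, 4.90% and 6.33%. The windows of rps-19, rps-12, rps-26 and rps-23 held none.

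The uncalled ribosomal protein genes were not used to pick the words. In the stretch from 500 to 100 bp upstream, TACGGT was in 27 of the 67 uncalled genes (40.3%), against 11.7% of 19893 other genes, and in 6 of the 13 called genes (46.2%). AGTGTA was in 4 of the 67 (5.97%), against 14.4% of other genes, and CGCTCC in 8 (11.9%), against 6.65%. In the called genes these 2 words were each in 5 of 13 (38.5%). TACGGT was thus found in similar shares of called and uncalled ribosomal protein genes, while AGTGTA and CGCTCC had lower shares in the uncalled genes than in the called ones, from which they were read. The median GC of the 13 windows was 44.0%, against 42.0% at the other called promoter summits and 33.5% at the uncalled ones, and its part in these counts was not tested.

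Other genes of the translation apparatus gave mixed counts with the same window, set beside 1.05% of all protein-coding genes. Of 35 genes listed as initiation and elongation factors, among them pab-1, erfa-1 and erfa-3, which have other roles, 5 were called (14.3%). They were iff-2, for the factor that carries hypusine (signal value 136), eef-1A.1 (77.0) and eef-1A.2 (67.7), which deliver aminoacyl-tRNA to the ribosome, eif-3.C (76.05) and eef-1G (62.9). iff-2 had ranks 59 and 69 in replicates 1 and 2 and eif-3.C had 722 and 78, while eef-1G had no summit of either replicate within 200 bp of its called one. The peaks of iff-2, eef-1A.1 and eef-1G also lay in the window of another protein-coding gene (F54C9.14, rfc-4 and ctf-4). Of 6 further proteins of the cytosolic ribosome or bound to it, the 4 genes outside the symbol rule among them, 2 were called. They were icd-1 (83.7) and icd-2 (71.8), the partners of the complex that meets the nascent chain. The peak of icd-1 also lay in the window of vps-32.1.

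No gene was called among 66 mitochondrial ribosomal proteins, 32 genes listed for ribosome assembly and RNA polymerase I, or 13 genes of growth control. The assembly list left out rpl-24.2, which was called, and also held cgh-1 and ebp-2, which are not known as assembly genes. Lists of these sizes would hold few called genes at the share of all protein-coding genes. Among the 319 strongest regions of a replicate, which reached 1.04% of all genes in each, the mitochondrial list had 0 genes in either replicate, the assembly list 1 in replicate 1 and 0 in replicate 2, and the growth control list 0 in replicate 1 and 1 in replicate 2. A pooled region was found at 21.3% of all genes. It was at 24 of the 66 mitochondrial ribosomal protein genes, 14 of the 32 genes in the assembly list and 7 of the 13 growth control genes, a larger share in each list. The 20 nuclear ribosomal RNA genes annotated on chromosomes I and V overlapped no region of any ce11 list. The treatment of repeated sequence in making the lists is unknown here, so the absence there does not show that nothing was bound.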

How the data were processed

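Chromatin immunoprecipitation was measured in 2 biological replicates of 1 group. Per the texts deposited with the samples, the authors made each replicate list (peaks and background) from that replicate's alignment with a further file, the pooled list from both alignments with that file, and the called list from these 3 by the irreproducible discovery rate. No label names a caller, an aligner or a threshold. The deposited signal value is a score on an unstated scale and served here for ranks inside each list. The deposited -log10 q-value was 2.87 for every called peak, and the deposited summit offset, another value, placed each summit. The ce10 lists were not used.

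Genes came from Ensembl release 115 on WBcel235, the ce11 sequence, and no region ran past a chromosome's end in the NCBI copy. Summits were assigned to windows with Python 3.11.15 (pandas 2.3.3, numpy 2.4.6, scipy 1.17.1). The assignment was tested on simulated data. Of the other genes listed for translation, 9 symbols matched no annotated gene and were left out. Depth is unknown. The genes, lists and words were chosen with earlier results of these data known, so no p-value was computed, and counts stand beside the share of all protein-coding genes. Replicate numbers come from the labels. All called genes are named, then those with a region among the 319 strongest of a replicate, then the 5 strongest of the rest. In the other lists, called genes are named. Some sequences are not reported here.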

Additional observations from a re-analysis of the deposited data

How the results depend on the processing

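The count of 13 called ribosomal protein genes was the same with windows of 500 bp (against 0.836% of all protein-coding genes) and 2000 bp upstream (1.4%), with the 5′ ends of all transcripts (1.09%) and with any overlap of region and window (1.13%). Among the stronger 159 called peaks it was 10 (0.5%). Without replicate 1 or replicate 2, the other replicate's 319 strongest regions were used instead of the calls. The count then lay between 15 and 18 genes, against 1.04% of all protein-coding genes in each case. The median summit lay between -307.5 and -288 bp. Several settings moved a value. With each summit given only to the nearest 5′ end, called genes numbered 6 (against 0.821% of all protein-coding genes), genes with a pooled region 29 (against 18.2%), genes that both replicates placed among their 319 strongest regions 6 (against 0.465%), and the median called summit lay at -272.5 bp. The other 7 called peaks were nearer to the 5′ end of another gene. With the 1000 strongest pooled regions in place of all 13052, the pooled count moved from 49 genes (21.3% of all protein-coding genes) to 24 (3.06% of all). With a 500 bp window the median best rank moved to 1887.5 in replicate 1, against 1495, and to 1513 in replicate 2, against 1832. Ranking by -log10 q, added after seeing the data, gave 12 genes in both replicates' strongest 319 (0.645% of all protein-coding genes). Ranking by signal value gave 14 (0.671% of all). The ranking by the p-value column was not run because that column is -1 throughout. No paired analysis was possible because there is 1 group. Depth is unknown, and with 2 replicates and no control analysed here the spread of a rank rests on 2 lists.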
